A study of Homo sapiens with 6 samples.

Results

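The genes described here are 37 enzymes of purine and pyrimidine nucleotide synthesis, taken as a fixed list of symbols and measured in PC3, an established cell line from a human prostate tumour. The cells carry a construct for PGC1A (gene PPARGC1A), which coactivates transcription factors and is best known as an inducer of mitochondrial genes, and doxycycline induces it. The groups were 3 arrays of cells given doxycycline for 2 passages and 3 arrays of cells without doxycycline, both carrying the PGC1A construct. PC3 is a single line that is known to lack functional p53, and doxycycline-treated cells without the construct were not analysed here, so doxycycline and induced PGC1A cannot be told apart. Probes of 34 of the 37 genes were detected (detection p under 0.01) on 3 or more of the 6 arrays, among 9841 genes tested in all. These 34 were read by 50 probes, and each gene with several probes is given by its brightest. DTYMK, thymidylate kinase, had a listed probe that was detected on 1 array only, and ADSS2 and SAMHD1 had no probe in the annotation used here.

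Purines are built stepwise on a ribose phosphate. PRPS enzymes make the activated sugar PRPP, PPAT commits it to the pathway, and GART, PFAS, PAICS, ADSL and ATIC assemble the ring to IMP, which IMPDH and GMPS turn into GMP and ADSS and ADSL into AMP. Pyrimidines are assembled as a free ring by CAD and DHODH, joined to PRPP by UMPS and aminated to CTP by CTPS. Ribonucleotide reductase (RRM1 with RRM2 or RRM2B) turns ribonucleotides into deoxynucleotides for DNA, TYMS makes thymidylate, and salvage enzymes recover free bases and nucleosides. RRM2, TYMS and TK1 are known for peaking in S phase, and RRM2B and the mitochondrial kinase TK2 for supplying deoxynucleotides outside it.

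On these arrays all values are log2 signals after background correction and quantile normalization, and they compare a probe with itself across arrays, not one gene with another. The arrays detected 15479, 15437 and 16012 probes with doxycycline and 15029, 15201 and 15841 without it (replicates 1 to 3). The doxycycline array of replicate 2 lay farthest out on the leading principal component (34.1% of the variance), at -20.6 where the other doxycycline arrays lay at -7.36 and -7.51 and the arrays without doxycycline between 8.84 and 13.6. The probe of PPARGC1A, the induced gene, read 5.26, 5.73 and 5.09 with doxycycline, against 4.94, 5.60 and 5.44 without it (log2 fold change 0.04, adjusted p = 0.951). The probe lay near background, detected on 3 of 3 arrays with doxycycline and 2 of 3 without it, and does not separate the groups. Whether it lies in the part that the construct carries was not analysed here. The epithelial markers KRT8, KRT19, EPCAM and CDH1 were detected on all 6 arrays, and KRT18 did not pass the detection filter. Among markers of other cells, 3 of 6 fibroblast genes (COL1A1, COL1A2 and LUM), 1 of 5 leukocyte genes (CD14) and 1 of 4 endothelial genes (PECAM1) were tested, with none past the threshold. The labels do not say that replicates were separate cultures, so the spread between them may be technical.

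No nucleotide gene passed the threshold, and the differences were small: every log2 fold change (doxycycline minus no doxycycline) lay between -0.39 for RRM2 and 0.28 for RRM2B. In limma's test at an adjusted p under 0.05, 0 of 34 were called, against 53 of all genes (0.539%), and 0 with the replicate number as a block, against 177 (1.8%). At an unadjusted p under 0.05 there were 3, IMPDH2 and PRPS2 lower and RRM2B higher, or 8.82% against 14.7% of all genes. With the block there were 9, or 26.5% against 23.1% of all genes. PRPS2, GART, IMPDH1, IMPDH2, UMPS, RRM2 and TK1 were the 7 lower, and RRM2B and CMPK1 the 2 higher. Standard errors, intervals and adjusted p-values below are from the fit without the block unless the block is named. Over the 50 probes 0 were called, against 0.682% of all probes, with 4 at an unadjusted p under 0.05. In such bulk RNA, fewer cells of a kind and less RNA per cell cannot be told apart.

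The direction leaned downward. Of the 34 genes, 25 (73.5%) lay below 0, against 56.6% of all genes, and their median log2 fold change was -0.09, against -0.03 over all genes. Every array with doxycycline lay below every array without it in 8 genes (23.5%), namely PRPS2, GART, PAICS, IMPDH1, IMPDH2, CTPS1, CTPS2 and UCK2, against 11.3% of all genes. The opposite held in 2 genes, RRM2B and TK2 (5.88%, against 10.2%). These counts use the brightest probe of each gene. Other probes of PRPS2, GART, PAICS, IMPDH1 and CTPS2 had overlapping groups, except an IMPDH1 probe at -0.22 that was lower on every doxycycline array. The standard errors of the 34 log2 fold changes ran from 0.0732 to 0.249, with a median of 0.099, close to the 0.103 of all genes. With 3 arrays a group the smallest p that an exact permutation of the arrays allows is 0.1, so the calls rest on limma's spread shared across genes.

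**Figure D1:**
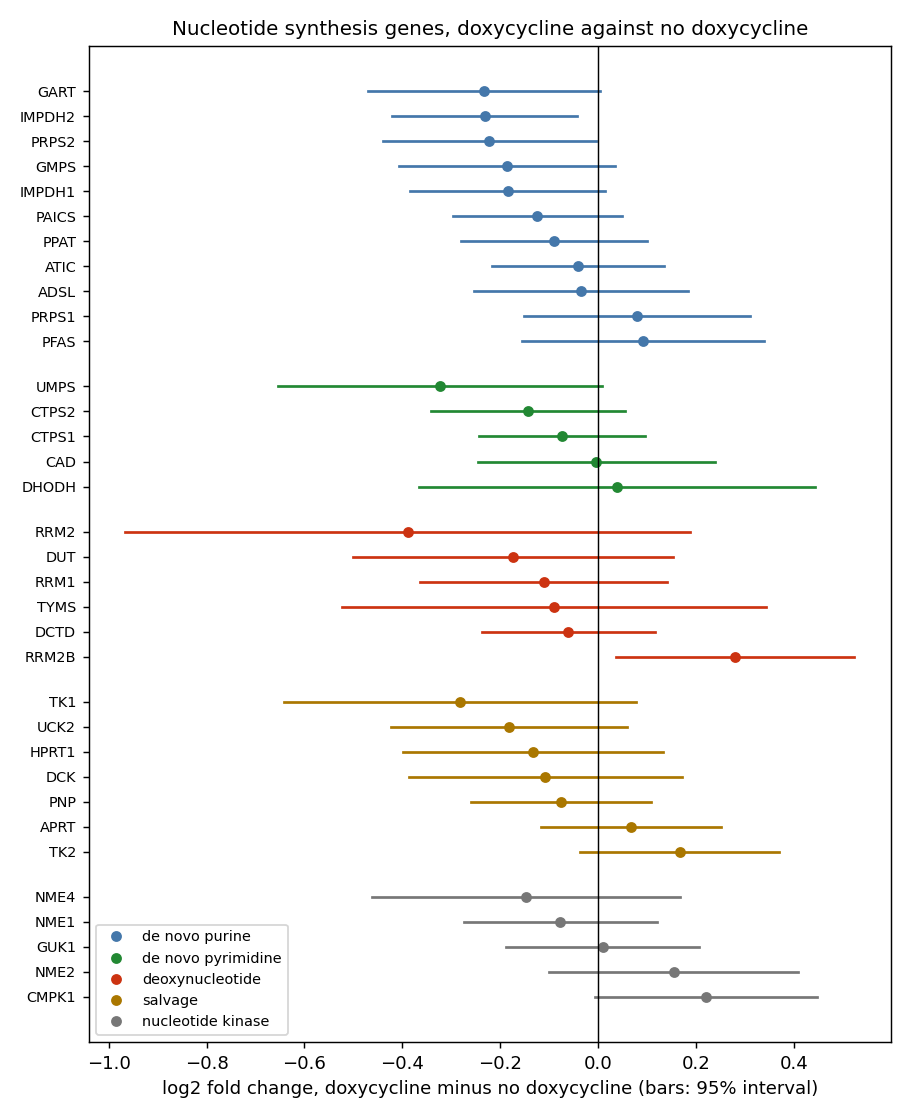
Log2 fold change of each of the 34 tested genes (horizontal axis, doxycycline minus no doxycycline, 3 arrays each), coloured by class. Bars are 95% intervals from limma's fit without the replicate block. The values run from -0.39 to 0.28, 25 of 34 points lie left of 0, and the intervals of IMPDH2, PRPS2 and RRM2B alone lie to one side of it.

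The 11 tested genes of de novo purine synthesis had a median log2 fold change of -0.12, with 9 below 0. IMPDH2, the main form of IMP dehydrogenase and the entry to GMP, read 12.31, 12.13 and 12.17 on the doxycycline arrays, against 12.44, 12.43 and 12.44 without doxycycline. All 3 doxycycline arrays were lower, and the arrays without doxycycline were almost level. The log2 fold change was -0.23 (SE 0.0816, 95% interval -0.42 to -0.04), or 0.852-fold (adjusted p = 0.266, and 0.141 with the block). Its relative IMPDH1 averaged 11.14 ± 0.08 with doxycycline and 11.33 ± 0.08 without it (SD, n = 3 each), a difference of -0.18 (adjusted p = 0.376).

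GART, which carries 3 activities of the purine ring's assembly in a single protein, read 11.32, 11.51 and 11.57 with doxycycline, against 11.64, 11.62 and 11.83 without it. Its groups did not overlap either, and the log2 fold change was -0.23 (SE 0.102, interval -0.47 to 0.01, adjusted p = 0.353). PRPS2, a PRPP synthetase, read 8.79, 8.64 and 8.77 with doxycycline, against 9.09, 8.84 and 8.93 without it. That gives -0.22 (SE 0.0941, interval -0.44 to -0.0048, adjusted p = 0.333), and its other probe lay at -0.17. The companion synthetase PRPS1 was at 0.08 (interval -0.15 to 0.31, adjusted p = 0.75), with groups that overlapped.

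Among the remaining purine genes, GMPS, which aminates XMP to GMP, was at -0.19 (interval -0.41 to 0.03, adjusted p = 0.417) and lower at each replicate number. PFAS, the amidotransferase of the ring, was at 0.09 (interval -0.16 to 0.34, adjusted p = 0.73) and higher at each number. ADSL at -0.03 (interval -0.25 to 0.18) and ATIC at -0.04 (interval -0.22 to 0.14) had the smallest differences of the class in size. PAICS, the bifunctional ring enzyme, read 12.84, 12.91 and 12.82 with doxycycline, against 12.997, 12.98 and 12.96 without it, at -0.12 (adjusted p = 0.49). Its other probe, detected on all arrays, was at -0.05 with groups that overlapped. PPAT, the committed step, was at -0.09 (interval -0.28 to 0.10, adjusted p = 0.655).

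PPAT and PAICS lie on opposite strands. In RefSeq (GRCh38.p14) 1 of the 3 PAICS starts listed lies 137 bases from the PPAT start, and from there the genes are transcribed away from each other. The windows of 250 bases before to 50 after these 2 starts share 236 bases. Another PAICS start, at 56410507, lies within PPAT. This PAICS window is shown because it holds a motif that was searched, and it also holds most of the region shared with PPAT. Capitals mark the sequence CACGTG, the E-box that MYC and its relatives are known to bind, which begins 40 bases after the PAICS start of this window. The window is 1 of 3 listed for PAICS, and the other 2 do not hold it.
PAICS (GRCh38.p14, chr4:56435502-56435801, plus strand): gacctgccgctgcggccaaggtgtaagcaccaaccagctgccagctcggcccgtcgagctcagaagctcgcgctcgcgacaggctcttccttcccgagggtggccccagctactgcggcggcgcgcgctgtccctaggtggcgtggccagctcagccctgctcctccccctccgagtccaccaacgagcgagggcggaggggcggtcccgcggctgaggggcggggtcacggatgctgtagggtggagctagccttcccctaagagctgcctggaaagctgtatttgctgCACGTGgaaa

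The 5 genes of de novo pyrimidine synthesis had a median of -0.07, with 4 below 0. UMPS, which attaches orotate to PRPP and decarboxylates it to UMP, read 6.68, 6.23 and 6.29 with doxycycline, against 6.72, 6.54 and 6.90 without it. The groups overlapped through the doxycycline array of replicate 1. Its log2 fold change of -0.32 (SE 0.143, interval -0.65 to 0.01, adjusted p = 0.357) was the lowest after RRM2. CTPS2, a CTP synthetase, read 9.30, 9.42 and 9.44 with doxycycline, against 9.49, 9.63 and 9.47 without it (log2 fold change -0.14, adjusted p = 0.489). The second CTPS2 probe differed less, by -0.0065. The other CTP synthetase, CTPS1, had the smallest standard error of the 34 genes and read 10.68, 10.65 and 10.64 with doxycycline, against 10.76, 10.71 and 10.72 without it. The groups stood apart, but by a log2 fold change of -0.07 only (interval -0.24 to 0.10, adjusted p = 0.685).

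CAD, the large protein of the opening steps, read 9.41, 9.43 and 9.52 with doxycycline, against 9.58, 9.53 and 9.26 without it. The log2 fold change was -0.0033 with an interval from -0.24 to 0.24 (adjusted p = 0.988), and its sign turned in 6 of the 16 alternative settings. DHODH is the mitochondrial enzyme of the pathway, and it passes electrons to ubiquinone. It lay near background, with 2 of 3 arrays detected in each group, at 5.39, 4.999 and 5.25 with doxycycline, against 4.82, 5.23 and 5.47 without it (log2 fold change 0.04, interval -0.37 to 0.44, adjusted p = 0.934). The arrays without doxycycline spanned more than the difference between the groups.

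The 6 tested deoxynucleotide genes had a median of -0.10, with 5 below 0, and the widest errors in the fit without the block. RRM2, the S-phase small subunit of ribonucleotide reductase, read 9.56, 8.47 and 9.23 with doxycycline, against 9.60, 9.28 and 9.54 without it. Number 2 was lowest in both groups, and the other doxycycline arrays overlapped or neared the range without doxycycline. RRM2 was lower with doxycycline at each replicate number, by differences of -0.05, -0.81 and -0.31. The log2 fold change was -0.39 (SE 0.249, interval -0.97 to 0.19, adjusted p = 0.516). With the block the SE was 0.144 and the adjusted p 0.185. The log2 fold change was -0.08 without the doxycycline array of replicate 2 and -0.62 without that of replicate 1. RRM2B, the p53-inducible small subunit, read 7.25, 6.99 and 7.34 with doxycycline, against 6.94, 6.88 and 6.92 without it. All doxycycline arrays were higher, by a log2 fold change of 0.28 (SE 0.105, interval 0.04 to 0.52), or 1.21-fold, and the adjusted p of 0.289 missed the threshold in that fit and in every alternative (lowest 0.0683, with array weights).

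**Figure D2:**
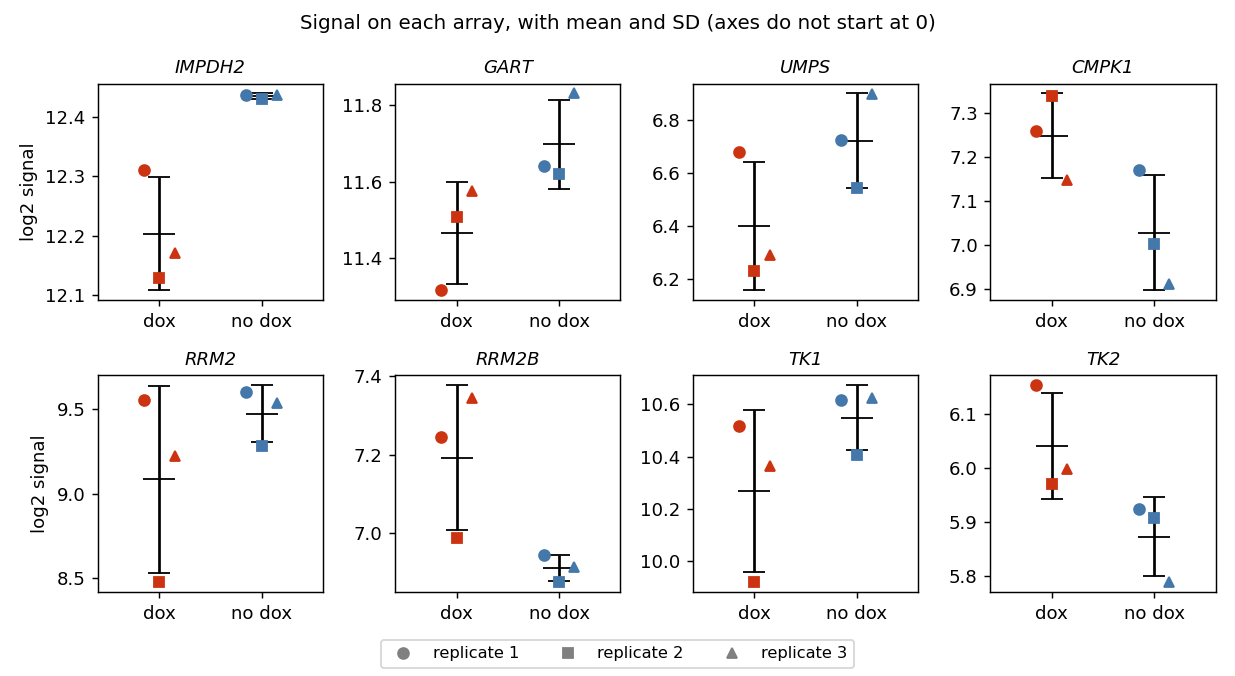
Log2 signal (vertical axes, which do not start at 0) of 8 genes on the 3 doxycycline arrays (left) and the 3 arrays without doxycycline (right), one symbol for each replicate number, with mean and SD. IMPDH2 and GART lie lower and RRM2B and TK2 higher on all doxycycline arrays, while RRM2 and TK1 are lowest on the doxycycline array of replicate 2, at 8.47 and 9.92.

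RRM1, the large subunit that either small subunit needs, was at -0.11 (interval -0.36 to 0.14, adjusted p = 0.681), and at -0.0046 without the doxycycline array of replicate 2. TYMS, thymidylate synthase, read 11.19, 10.43 and 11.08 with doxycycline, against 11.02, 10.90 and 11.04 without it. On 2 of the doxycycline arrays it was above every array without doxycycline and on the third well below, so that its log2 fold change of -0.09 (interval -0.52 to 0.34, adjusted p = 0.858) became 0.15 without the replicate 2 array. DUT, which hydrolyses dUTP, read 8.64, 8.12 and 8.56 with doxycycline, against 8.70, 8.51 and 8.64 without it (log2 fold change -0.17, adjusted p = 0.61). Without the doxycycline array of replicate 2 it was -0.01, and without that of replicate 1 it was -0.27. Its other probe was at 0.09. DCTD, which deaminates dCMP to dUMP, differed least in the class, at -0.06 (interval -0.24 to 0.12, adjusted p = 0.751).

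The promoter window of RRM2 is shown as that of the gene with the lowest fold change. That of DUT is shown because it holds 2 of the motifs searched. Both genes were lowest on the doxycycline array of replicate 2, as were 15 of the 34 genes, so this does not single them out. In DUT capitals mark TTTCCCGC (here on the opposite strand, as GCGGGAAA) and TTTGGCGC, forms of the E2F site known from S-phase genes. The DUT window is 1 of 4 listed for the gene, and the other 3 hold none of the motifs. The RRM2 window is 1 of 2, and both held none of the 5 motifs searched.
RRM2 (GRCh38.p14, chr2:10122489-10122788, plus strand): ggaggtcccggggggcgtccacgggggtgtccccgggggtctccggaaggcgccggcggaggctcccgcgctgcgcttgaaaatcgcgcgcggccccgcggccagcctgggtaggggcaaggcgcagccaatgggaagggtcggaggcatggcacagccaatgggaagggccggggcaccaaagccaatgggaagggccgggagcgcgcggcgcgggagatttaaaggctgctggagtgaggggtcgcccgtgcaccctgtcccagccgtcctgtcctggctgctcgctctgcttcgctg
DUT (GRCh38.p14, chr15:48331947-48332246, plus strand): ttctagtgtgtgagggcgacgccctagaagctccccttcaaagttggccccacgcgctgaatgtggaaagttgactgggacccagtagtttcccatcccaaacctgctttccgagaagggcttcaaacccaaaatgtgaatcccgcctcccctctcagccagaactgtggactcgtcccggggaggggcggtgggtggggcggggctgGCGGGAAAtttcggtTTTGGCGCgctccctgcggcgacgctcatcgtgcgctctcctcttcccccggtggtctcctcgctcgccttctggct

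The 7 salvage genes had a median of -0.11, with 5 below 0. TK1, the cytosolic thymidine kinase of S phase, read 10.52, 9.92 and 10.36 with doxycycline, against 10.62, 10.41 and 10.63 without it. It was lower at each replicate number, with a log2 fold change of -0.28 (SE 0.155, interval -0.64 to 0.08, adjusted p = 0.456), or -0.11 without the doxycycline array of replicate 2. TK2, its mitochondrial counterpart, read 6.15, 5.97 and 5.997 with doxycycline, against 5.92, 5.91 and 5.79 without it, a log2 fold change of 0.17 (SE 0.0878, interval -0.04 to 0.37, adjusted p = 0.432). Here all doxycycline arrays were higher. The size of the TK2 difference depended on the processing, at 0.10 without background correction and 0.22 with median scaling.

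UCK2, which phosphorylates uridine and cytidine, read 10.19, 9.87 and 10.17 with doxycycline, against 10.29, 10.22 and 10.26 without it (log2 fold change -0.18, interval -0.42 to 0.06, adjusted p = 0.471), and its groups did not overlap. DCK, the deoxycytidine kinase, was at -0.11 (interval -0.39 to 0.17) and HPRT1, which recovers hypoxanthine and guanine, at -0.13 (interval -0.40 to 0.13). HPRT1's other probe was close by, at -0.14. Without the doxycycline array of replicate 2, UCK2 was at -0.08, HPRT1 at -0.012 and DCK on the other side of 0. The purine salvage genes APRT, which recovers adenine, at 0.07 (interval -0.12 to 0.25), and PNP, the nucleoside phosphorylase, at -0.08 (interval -0.26 to 0.11), stayed near 0 on each number, between -0.12 and 0.15.

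The 5 genes kept apart as nucleotide kinases had a median of 0.01, with 3 above 0. CMPK1, which phosphorylates UMP and CMP, read 7.26, 7.34 and 7.15 with doxycycline, against 7.17, 7.002 and 6.91 without it. The groups overlapped only through doxycycline replicate 3 and no-doxycycline replicate 1, and the log2 fold change was 0.22 (SE 0.0981, interval -0.01 to 0.45, adjusted p = 0.359), with 0.15 on the other probe. NME2, a nucleoside diphosphate kinase, read 8.51, 8.38 and 8.24 with doxycycline, against 8.38, 8.21 and 8.07 without it (log2 fold change 0.15, interval -0.10 to 0.41, adjusted p = 0.555). Differences at matching replicate numbers were even, at 0.13, 0.17 and 0.17. NME1, its close relative, was at -0.08 (interval -0.27 to 0.12, adjusted p = 0.717).

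NME4, the mitochondrial member of that family, read 11.72, 12.25 and 12.02 with doxycycline, against 12.06, 12.23 and 12.14 without it (log2 fold change -0.15, interval -0.46 to 0.17, adjusted p = 0.661). The low array was doxycycline replicate 1. GUK1, guanylate kinase, read 11.28, 11.13 and 11.24 with doxycycline, against 11.15, 11.30 and 11.18 without it (log2 fold change 0.01, interval -0.19 to 0.21, adjusted p = 0.967). NME1 and NME2 are near-identical neighbours, and whether a probe of one also reads the other was not analysed here. CMPK1's promoter window is shown as that of the highest fold change among genes whose sequence could be shown, and it held none of the 5 motifs.
CMPK1 (GRCh38.p14, chr1:47333540-47333839, plus strand): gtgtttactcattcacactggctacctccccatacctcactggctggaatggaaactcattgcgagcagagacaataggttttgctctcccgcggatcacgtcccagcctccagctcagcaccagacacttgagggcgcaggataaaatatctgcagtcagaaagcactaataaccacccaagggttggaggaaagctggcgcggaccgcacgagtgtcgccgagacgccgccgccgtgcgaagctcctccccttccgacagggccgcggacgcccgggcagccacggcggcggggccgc

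Classes differed in how evenly they stood below 0 over the replicate numbers, a contrast that was described and not tested. Purine genes had median differences of -0.13, -0.09 and -0.08 at numbers 1, 2 and 3. Deoxynucleotide genes were at -0.05, -0.32 and -0.05, salvage genes at -0.10, -0.34 and -0.05 and pyrimidine genes at -0.08, -0.21 and -0.08, so these stood lowest at number 2. Over all genes tested the medians at numbers 1, 2 and 3 were -0.0226, -0.019 and -0.021. The kinase medians were 0.09, 0.01 and 0.06, and over all numbers their median of 0.01 turned negative when any of 4 single arrays was left out. Over the 34 genes 15 (44.1%) were lower with doxycycline at all 3 numbers, against 27.1% of all genes, and 5 (14.7%) were higher at all 3, against 20%.

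**Figure D3:**
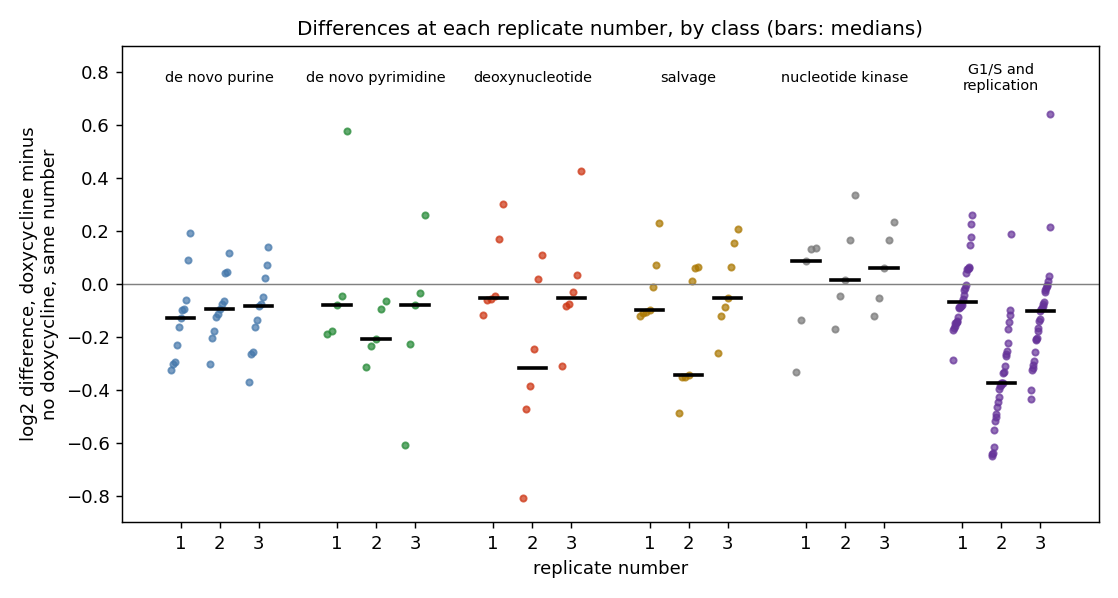
Log2 difference (vertical axis) between the doxycycline array and the array without doxycycline of the same replicate number (horizontal axis), 1 point a gene, for the 5 classes and for 29 genes of G1/S and replication, with medians as bars. The deoxynucleotide, salvage and G1/S medians are lowest at number 2 (-0.32, -0.34 and -0.38), and the purine medians lie between -0.13 and -0.08.

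In the deoxynucleotide and salvage classes the number 2 array with doxycycline stood well below the number 2 array without it. The deoxynucleotide genes lay at a median of -0.34 from their means over all arrays on the doxycycline array of replicate 2. The array of that number without doxycycline lay at -0.02, below the other arrays without doxycycline at 0.10 and 0.08. Number 2 was thus the lowest for this class in both groups. Salvage genes lay at -0.30 on that doxycycline array and at 0.03 on its counterpart, where the others without doxycycline lay at 0.02 and 0.04. Purine genes lay at -0.07 on the doxycycline array of replicate 2 and at 0.02 without doxycycline, where the others lay at 0.08. Over all genes tested the median on the doxycycline array of replicate 2 was -0.0034. Of the 34 genes, 15 had their lowest value on that doxycycline array: 4 of 6 deoxynucleotide genes (RRM1, RRM2, TYMS and DUT), 4 of 7 salvage genes (HPRT1, TK1, DCK and UCK2), 4 of 11 purine genes (PRPS1, PRPS2, IMPDH1 and IMPDH2), UMPS, NME1 and GUK1. The share of all genes lowest on that array was not counted, so whether 15 of 34 is unusual is not known. Without that array the class medians were -0.0098 (deoxynucleotide), -0.01 (salvage) and -0.15 (purine), and with it -0.10, -0.11 and -0.12.

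**Figure D4:**
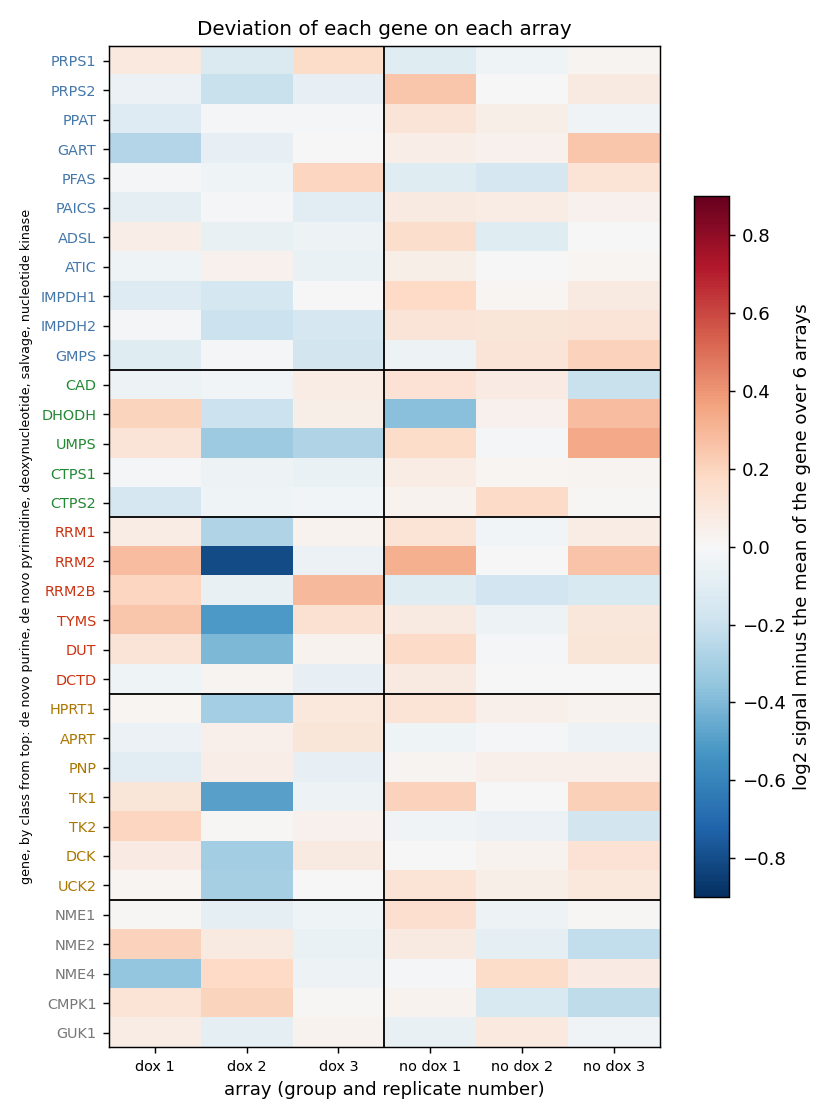
Log2 signal of each tested gene (rows, grouped by class) on each array (columns) minus the mean of the gene over all 6 arrays, red above and blue below it. RRM2, TYMS, TK1 and DUT are deepest blue on the doxycycline array of replicate 2, while IMPDH2 and PAICS are pale but at or below their means on all doxycycline arrays.

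Genes of G1/S and DNA replication were lowest on that array as well. Of 29 tested, 27 lay below 0, with a median log2 fold change of -0.20 (-0.08 without the doxycycline array of replicate 2), and the list's median on that array was -0.35. At numbers 1, 2 and 3 the median differences were -0.07, -0.38 and -0.10. None of the 29 was called (limma, lowest adjusted p = 0.336, and 0.105 with the block), and 1 (3.45%) had an unadjusted p under 0.05, against 14.7% of all genes. With the block 11 (37.9%) did, 10 of them lower, against 23.1% of all genes. The chromatin assembly subunit CHAF1B was lowest, at -0.41 (adjusted p = 0.436), followed by UHRF1, the reader of newly copied DNA, at -0.36 (adjusted p = 0.458). PCNA, the sliding clamp, was highest, at 0.33 (adjusted p = 0.412). The part of these genes in the deoxynucleotide differences was not tested.

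In other genes of nucleotide metabolism, 27 of 43 were tested, with a median log2 fold change of 0.04, and 0 were called in either direction (limma). At an unadjusted p under 0.05 there were 3 (11.1%), against 14.7% of all genes. With the block there were 11 (40.7%), 8 higher and 3 lower, against 23.1%. NT5M, a mitochondrial nucleotidase of deoxynucleotides, read 5.98, 5.69 and 5.80 with doxycycline, against 5.33, 5.40 and 5.67 without it, at 0.36 (SE 0.12, adjusted p = 0.245), and the groups barely cleared each other. SLC29A2, a nucleoside transporter, was at 0.34 (adjusted p = 0.369). The regulatory partners of PRPP synthetase, PRPSAP1 and PRPSAP2, were at 0.30 (lowest adjusted p of the list, 0.147, and 0.0801 with the block) and -0.31 (adjusted p = 0.45).

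Of 7 folate enzymes, which supply formyl groups to GART and ATIC and the methyl group to TYMS, 5 were tested and 0 were called (limma). At an unadjusted p under 0.05 there was 1 (20%), with and without the block, against 23.1% of all genes with it and 14.7% without it. MTHFD1L, the mitochondrial formate-releasing enzyme, read 9.66, 9.75 and 9.68 with doxycycline, against 9.88, 9.996 and 9.95 without it, at -0.25 (adjusted p = 0.224). The groups stood clear of each other. SHMT2, the mitochondrial serine hydroxymethyltransferase, was at -0.15 (adjusted p = 0.49). Of 7 regulators 5 were tested, and ESRRA, the PGC1A partner ERR-alpha, was called with the block only (0.50, adjusted p = 0.0502, and 0.037 with the block). MYC, a known activator of nucleotide synthesis genes, was at -0.06 (adjusted p = 0.89). RB1, the pocket protein that holds E2F factors in check, was at -0.24 (adjusted p = 0.303).

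Several genes had more than 1 tested probe. Of 12 such genes, 5 had probes on opposite sides of 0: GART, IMPDH1, DUT, DCTD and NME1. GART's probes detected on all 6 arrays were at -0.23 and -0.17, and the third, detected on 5, at 0.29 (adjusted p = 0.395 over all probes). The probe that stands for NME1 was at -0.08, and another, also detected on all arrays, at 0.31 (adjusted p = 0.273). Averaging probes moved GART to -0.04 and NME1 to 0.06, so the values of these genes depend on which probe stands for them.

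RefSeq promoter windows were found for 34 of the 37 genes, 51 windows in all, and 5 motifs were searched on both strands. These are not the same 34 genes as those tested on the arrays. ADSL, IMPDH2 and RRM2B had no window, and the untested ADSS2, DTYMK and SAMHD1 had windows. CACGTG was in 11.8% of the 51 windows (ATIC, DCK, DHODH, NME1, PAICS and PPAT), against 7.26% of all windows. The PAICS and PPAT windows overlap and hold the same CACGTG, so 1 site is counted in 2 of these 6 windows. TTTCCCGC was in 5.88% (DUT, PRPS2 and TYMS), against 1.63%, and TTTGGCGC in 5.88% (DCK, DUT and GART), against 0.652%. AAGGTCA, the core that ERR receptors bind, was in 3.92% (ADSS2 and CTPS1), the same as the 3.92% of all windows. GCATGCGC, the core of the NRF1 site, was in 1.96% (CTPS1), against 3.05%. These shares rest on 1 to 6 windows each and describe letters, not binding.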

How the data were processed

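Total RNA of 6 PC3 samples was amplified to biotin-labelled aRNA and hybridised to Illumina bead arrays, 1 per sample, per the labels' protocols. The authors deposited a linear probe intensity (47231 probes) and a detection p-value for each array, not normalized between arrays as far as the values show. Scanner software is not given in the sources used here. They also deposited processed log2 values for the 17925 probes detected on at least 1 array, and these equal quantile-normalized log2 intensities without background correction (largest gap 5e-09). The submitters' processing notes name lumi.

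Here limma's neqc (limma 3.58.1, R 4.3.3) corrected the intensities by normexp with negative controls inferred from the detection p-values (offset 16), normalized quantiles and took log2. The filter kept 15542 probes detected (p under 0.01) on at least 3 arrays, which were named through the platform annotation (13977 probes with 1 gene, 4 with several, the rest unnamed here) and updated by gene number (13970 matched). Scanner dates and slides were not analysed here, and the number of arrays limits the precision. The comparison used lmFit and eBayes of limma (two-sided) with Benjamini-Hochberg adjustment over all 9841 genes. The fit was checked on simulated data.

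Replicate numbers come from the titles. Deviations from the group means correlated at 0.40, 0.46 and 0.24 between arrays of the same number, so the numbers pair the arrays. The main fit leaves this pairing out, which widens the errors of genes that vary with the number. The SE of RRM2 was 0.249 without the block and 0.144 with it, and that of TK1 0.155 and 0.0919. The genes, lists and motifs were chosen with earlier results of these data known. All genes of the 2 smallest classes were named, and the 3 highest and lowest fold changes of the other 3, with every array's values for most and ranges for the rest. From the other lists the members with the largest change were named. PAICS, IMPDH1, GMPS, PPAT, ATIC, DCK, PCNA, PRPSAP1, PRPSAP2, MYC and PPARGC1A, and the promoters of PAICS and DUT, were added after their values were seen. Alternatives are listed in the closing section. Promoter sequences are from RefSeq (GRCh38.p14).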

Additional observations from a re-analysis of the deposited data

How the results depend on the processing

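No nucleotide gene was called in any of the 16 alternative fits, where the lowest adjusted p of a gene was 0.0683 (RRM2B, array weights). Signs of uncalled genes turned under some settings, and the 7 genes concerned were ADSL, CAD, DHODH, TYMS, DCK, NME1 and GUK1. Over all genes, 53 calls became 81 without background correction, 81 on the authors' deposited table, 30 without a detection filter, 177 with the replicate block, 100 with a variance trend and 207 with array weights. Leaving out each array gave 1 to 9 calls, and leaving out both arrays of number 2, added after the data were seen, gave 1. The median of the 34 genes was -0.09, and -0.0611 with array weights. Leaving out each array in turn gave -0.11 to -0.0608, lowest without doxycycline replicate 3 and highest without doxycycline replicate 2. For de novo purine genes the median of -0.12 became -0.0874 for the mean of the probes, -0.15 without both arrays of number 2, and -0.15 to -0.11 leaving out each array. For the kinases 0.0093 became 0.0625, 0.0993 and -0.0221 to 0.055 under the same settings. When each array was left out, the deoxynucleotide median ran from -0.20 (without doxycycline replicate 1) to -0.0098 and the salvage median from -0.17 (without doxycycline replicate 3) to -0.012 (both highest without doxycycline replicate 2). The pyrimidine median was lowest, at -0.14, without no-doxycycline replicate 1. The replicate block changed no call among the nucleotide genes. Why these values moved was not tested. Leaving SAMHD1 out of its class was not run, since it had no tested probe, and leaving out PRPS1 and PRPS2 left the purine median at -0.12. In the fit without the block most intervals extended about 0.2 or more on the log2 scale to each side of the estimate, so smaller changes are poorly resolved. DHODH and PPARGC1A lie near background.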
